A study of Mus musculus with 12 samples.

Results

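A set of 10 genes of the NF-kB system was followed across 12 single-colour Agilent arrays of mouse macrophage RNA. They comprised 5 subunits of the transcription factor (*Nfkb1*, *Nfkb2*, *Rel*, *Rela* and *Relb*) and 5 genes counted as its inhibitors (*Nfkbia*, *Nfkbib*, *Nfkbie*, *Nfkbiz* and *Tnfaip3*). All probes whose RefSeq transcript belongs to one of these genes were taken, which gave 14 of the 55681 probes on the array and 10 of the 20862 genes tested, and all 14 passed the filter on dim signals, which asked for a signal well above background, as the scanner software marks it, on all 4 arrays of some group. The rule itself uses no measured value, although the set was proposed with earlier results of these data known. The cells came from wild-type (WT) C57BL/6 mice aged 8 weeks and formed 3 groups of 4 arrays each: IL4 at 10 ng/ml together with emodin, a plant anthraquinone, at 50 µM; IL4 at 10 ng/ml alone; and vehicle control. The sample descriptions give 6 h of treatment and the treatment protocol an overnight one. The sample labels name peritoneal macrophages, and the series text names white blood cells of the circulation instead. Whether each array carries RNA of 1 mouse or of several is not given, and p-values thus reflect only the scatter among these arrays, which may be technical in part.

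NF-kB factors are dimers of 5 related subunits that share a DNA-binding Rel homology region. In resting cells IkB proteins hold the dimers in the cytoplasm, and signals from Toll-like, interleukin-1 and TNF receptors pass through adaptors and kinases to the IKK complex, which marks IkB for destruction by the proteasome. The freed dimers switch on inflammatory genes and, among them, genes of their own inhibitors, which makes the system a feedback loop. In macrophages this route drives the classical inflammatory response, whereas IL4 acts mainly through STAT6 and the alternative activation programme.

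Because several members are known to be NF-kB targets themselves, the bases just upstream of 4 of them are shown. A script searched the 250 bases before each start in the RefSeq promoter table of build GRCm38.p6 for the NF-kB consensus: 3 G, then A or G, then any 2 bases, then 2 of C or T, then 2 C, on both strands and with overlapping matches counted. Of the 10 members 7 matched the table, and 5 of these 7 held at least 1 match, against 8.23% of all 27025 genes with a window. Capitals mark the bases covered by a match, each sequence runs 5′ to 3′ toward the start, and all 4 windows lie directly before the transcript.
Nfkbia, chr12:55492648-55492897, minus strand: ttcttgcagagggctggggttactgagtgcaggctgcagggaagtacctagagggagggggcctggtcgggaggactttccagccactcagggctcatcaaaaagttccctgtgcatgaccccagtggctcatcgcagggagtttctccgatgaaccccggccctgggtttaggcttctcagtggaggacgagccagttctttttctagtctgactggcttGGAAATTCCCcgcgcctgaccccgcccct
Nfkbie, chr17:45555450-45555699, plus strand: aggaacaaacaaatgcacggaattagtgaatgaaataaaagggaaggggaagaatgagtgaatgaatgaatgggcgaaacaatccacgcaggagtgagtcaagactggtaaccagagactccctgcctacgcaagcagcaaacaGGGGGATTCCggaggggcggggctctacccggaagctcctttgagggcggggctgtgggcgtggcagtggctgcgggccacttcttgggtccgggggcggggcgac
Tnfaip3, chr10:19015411-19015660, minus strand: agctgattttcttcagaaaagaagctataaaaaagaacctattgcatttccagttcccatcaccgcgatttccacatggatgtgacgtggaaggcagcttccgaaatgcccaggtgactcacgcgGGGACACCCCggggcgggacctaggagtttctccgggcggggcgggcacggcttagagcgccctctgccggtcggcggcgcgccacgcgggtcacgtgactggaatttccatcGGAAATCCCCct
Rel, chr11:23770970-23771219, minus strand: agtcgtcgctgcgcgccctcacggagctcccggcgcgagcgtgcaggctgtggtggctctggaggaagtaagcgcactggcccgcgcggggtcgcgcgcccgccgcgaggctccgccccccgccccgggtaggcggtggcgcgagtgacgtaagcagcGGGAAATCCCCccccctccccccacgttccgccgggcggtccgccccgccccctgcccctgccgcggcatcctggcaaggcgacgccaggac
In *Nfkbia* the match lay 29 to 20 bases upstream, in *Nfkbie* 106 to 97 bases, in *Tnfaip3* 125 to 116 and 12 to 3 bases, and in *Rel* 92 to 82 bases upstream. *Nfkb2* also held matches, and the windows of *Rela* and *Nfkbib* and a second window of *Tnfaip3* held none. *Nfkb1*, *Relb* and *Nfkbiz* had no entry. A match describes these letters only. The genes that carry one did not move alike, as their values below show. *Nfkbia* and *Tnfaip3* were higher with emodin than with IL4 alone, *Nfkbie* and *Nfkb2* were lower, and *Rel* was not called.

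Several facts of the arrays bear on all values. The emodin arrays lay on a slide of their own, in row 2. The IL4 arrays, in row 1, and the control arrays, in row 2, shared another slide. Emodin and slide therefore cannot be told apart, and for IL4 against control neither can IL4 and row. Against IL4, the emodin arrays differ in row as well as in slide. The 75th percentile of intensity was 488 ± 31.4 on IL4 plus emodin arrays, 776 ± 24.5 on IL4 arrays and 730 ± 74.0 on control arrays (SD, n = 4 each; exact permutation test, two-sided, p = 0.0286 for emodin against either group, the smallest possible). Every level below is log2 intensity minus this percentile of its own array, and every difference is a difference of such levels, so that directions are relative to the 75th percentile. A gene is called where limma's two-sided test, adjusted by Benjamini-Hochberg over all genes tested, gave a p below 0.05. The spike-in probes, which read RNA added to each sample in fixed amounts, did not dim with emodin, and their mean log2 intensity was 8.89 ± 0.135 on IL4 plus emodin arrays, 8.60 ± 0.183 on IL4 arrays and 8.61 ± 0.153 on control arrays (SD, n = 4 each; exact permutation test, two-sided, p = 0.0571 for emodin against IL4 and 0.0286 for emodin against control). Replicates 1 and 2 of each group are labelled female and 3 and 4 male, yet *Xist* lay well above background on all 6 arrays labelled male and *Ddx3y*, *Eif2s3y*, *Kdm5d* and *Uty* on none of them, so these 6 arrays go against their label. Of 10 macrophage markers 9 had a probe, and 8 of them lay well above background on all 12 arrays. Their levels were not all steady: of these 9, 2 were called higher and 3 lower with emodin than with IL4. Among them, *Fcgr1* averaged -1.83 with IL4 plus emodin, 1.06 with IL4 and 1.63 in control. The T cell list had 5 markers with a probe, of which *Cd3e* and *Cd4* lay well above background on all 12 arrays and *Cd3d*, *Cd3g* and *Cd8a* on none. Of 4 eosinophil markers, *Siglecf* did so on all 12 arrays, *Ccr3* on 0 of 4 IL4 plus emodin, 4 of 4 IL4 and 2 of 4 control arrays, and *Epx* and *Prg2* on none. The summed level of the B cell markers, in multiples of the 75th percentile, ranged from 0.354 to 0.548 on IL4 plus emodin arrays, 1.15 to 2.16 on IL4 arrays and 1.03 to 2.37 on control arrays, and the 3 B cell markers tested were called lower with emodin in both comparisons; *Pax5*, a defining B cell gene, lay well above background on no array. The summed level of the neutrophil markers ranged from 145 to 176 on IL4 plus emodin arrays, 113 to 126 on IL4 arrays and 111 to 133 on control arrays, but the markers did not move as one. *Csf3r* and *Elane* were the genes with the highest levels in that sum, while *S100a8* averaged 2.67 with IL4 plus emodin, 2.96 with IL4 and 3.41 in control, and *Ltf* -2.04, -1.23 and -1.04 in these groups. *Retnlg* lay well above background on 0 of 4 IL4 plus emodin arrays, 3 of 4 IL4 arrays and 3 of 4 control arrays. Of 7 neutrophil markers tested, 3 were called higher and none lower with emodin than with IL4, and 4 higher and 2 lower than in control. Of 6 mast cell markers, *Cpa3*, *Tpsb2* and *Kit* lay well above background on all 12 arrays and the others on fewer. Of 5 mast cell markers tested, 1 was called higher and none lower with emodin in both comparisons. *Kit* averaged -2.18 with IL4 plus emodin, -4.10 with IL4 and -4.14 in control. The part of these other cells in the results was not tested, and in such bulk RNA fewer cells of a type and less RNA per cell cannot be told apart.

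With emodin added to IL4, inhibitors of NF-kB were mostly higher and subunits mixed, but with spike-in scaling only *Nfkbiz* was still called higher and *Relb* turned lower. Against IL4 alone 5 members rose and 3 fell, in a comparison that called 65.9% of the 20862 genes (39.4% up and 26.5% down). *Nfkbiz*, *Tnfaip3*, *Nfkbia*, *Nfkbib* and *Relb* were higher, *Nfkbie*, *Nfkb1* and *Nfkb2* were lower, and *Rel* and *Rela* were not called. The median difference of the 10 genes was 0.26, against 0.17 for all genes. With so many genes called, 8 of 10 members says little about these genes as a set.

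In IL4 alone against control, 5 of the 10 genes were called, where 17.5% of all genes were. *Rel*, *Nfkb1* and *Nfkbib* were higher (3 members, against 8.98% of all genes) and *Nfkbie* and *Nfkbia* lower (2 members, against 8.56%). The median difference was 0.05 for the members and -0.03 for all genes. IL4 plus emodin against control gave 6 genes higher and 1 lower, *Nfkbie*, in a comparison that called 62.9% of the 20862 genes (37.3% up and 25.6% down), and the median was 0.64 for the members and 0.15 for all genes. Counting only genes called with at least a 2-fold difference, emodin gave 3 members higher and 1 lower than IL4, against 8.47% and 9.87% of all genes. It gave 3 higher and 1 lower than control, against 7.82% and 8.83%. IL4 gave 1 member at least 2-fold higher than control and none lower, against 2.72% and 1.23%. That member was *Rel*, whose control signal is near background, and its difference of 1.14 was 0.59 after normexp with quantile normalization. The 4 arrays of both groups did not overlap at all in 8 members for emodin against IL4, in 7 for emodin against control and in 5 for IL4 against control, where this held for 60.4%, 54.3% and 24.9% of all genes. The comparisons against control share the control arrays and those with IL4 share the IL4 arrays, so they are not independent of each other. The plot of levels on every array and the plot of the 3 differences show these values side by side.

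**Figure D1:**
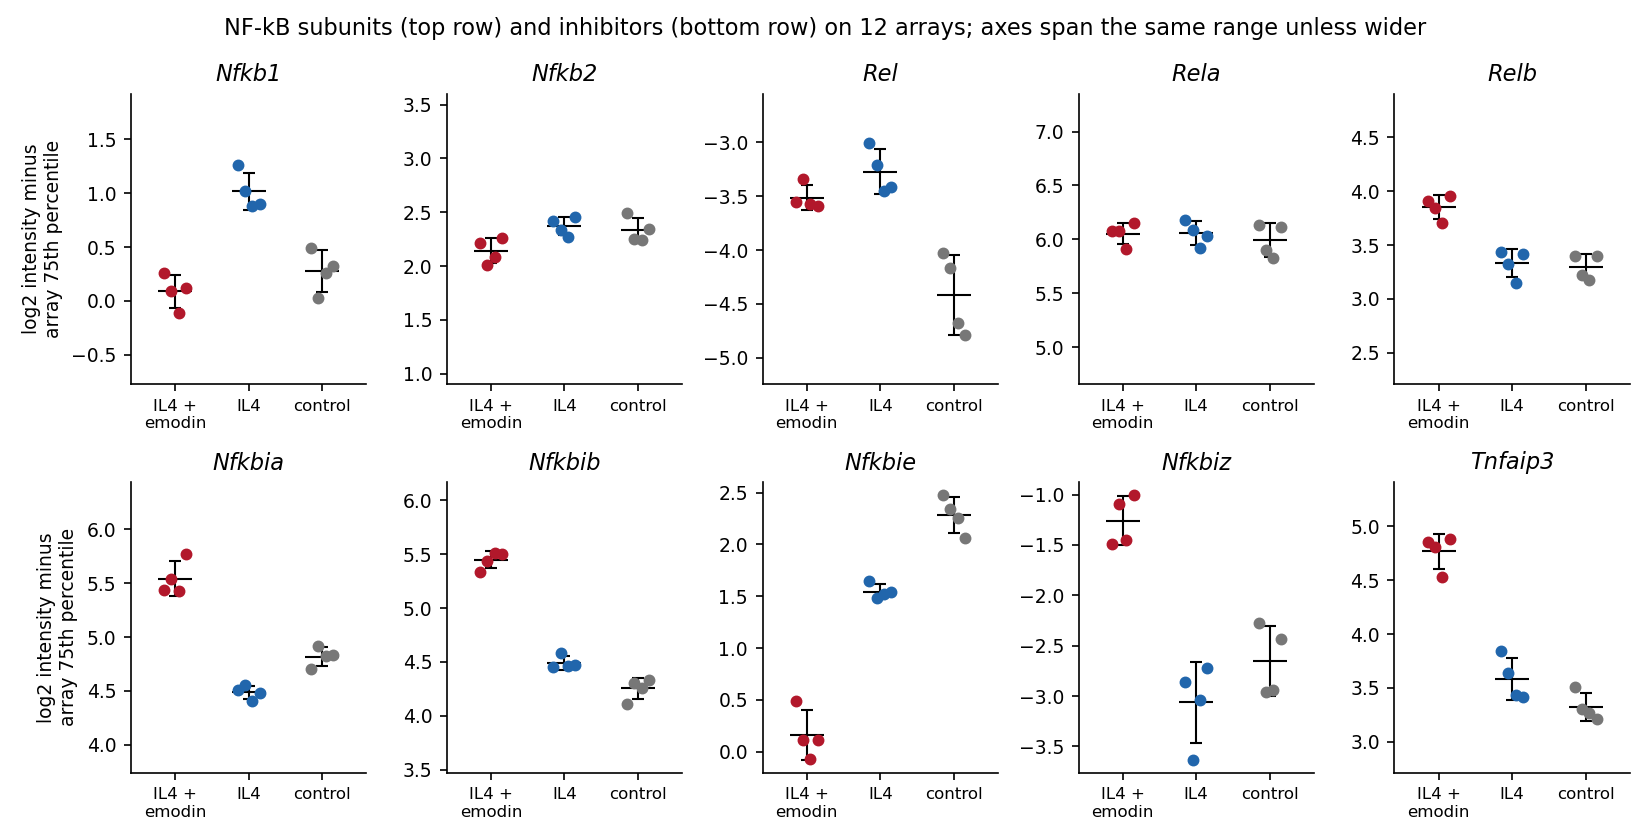
Level of each of the 10 genes on the 12 arrays, as log2 intensity minus the array's 75th percentile, with IL4 plus emodin left of IL4 and IL4 left of control; points are single arrays and bars the mean ± SD of 4. In *Nfkbie* the IL4 plus emodin arrays, at -0.08 to 0.49, lie below all others, and in *Nfkbia*, *Nfkbib*, *Nfkbiz* and *Tnfaip3* they lie above all others.

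*Nfkb1* encodes p105, which is processed to the p50 subunit, a DNA-binding partner without a transactivation domain. Its level was 0.26, 0.09, -0.11 and 0.12 on the IL4 plus emodin arrays, 1.26, 1.02, 0.88 and 0.90 on the IL4 arrays, and 0.50, 0.03, 0.26 and 0.33 on the control arrays (replicates 1 to 4). All 4 IL4 arrays stood above the other 8, while the emodin and control arrays overlapped. With emodin the level was 1.90-fold lower than with IL4 alone, a difference of -0.93 ± 0.12 on the log2 scale (± SE, 4 arrays a group; limma, adjusted p = 3.41e-05). With IL4 it was higher than in control by 0.74 ± 0.12 (adjusted p = 0.00116). IL4 plus emodin against control gave -0.19, with a 95% interval from -0.45 to 0.08 (adjusted p = 0.194), but -1.05 and called with spike-in scaling (adjusted p = 7.83e-06). The gene's other probe gave -1.32 for emodin against IL4 and 0.84 for IL4 against control, and it was called in the comparison with control, at -0.48 (adjusted p = 0.0279).

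*Rel*, which encodes c-Rel, a subunit that carries a transactivation domain and is prominent in lymphocytes and myeloid cells, was read by a dim probe. It lay well above background on 4 of 4 IL4 plus emodin arrays, 4 of 4 IL4 arrays and 2 of 4 control arrays. Its level was -3.55, -3.34, -3.57 and -3.59 on the IL4 plus emodin arrays, -3.004, -3.21, -3.45 and -3.42 on the IL4 arrays, and -4.03, -4.17, -4.68 and -4.79 on the control arrays. Every IL4 array and every emodin array thus exceeded every control array. The difference was 1.14 ± 0.17 for IL4 against control, 2.21-fold (adjusted p = 0.000505), and 0.90 ± 0.17 for IL4 plus emodin against control (adjusted p = 0.000558), a call that ended with spike-in scaling (0.045, adjusted p = 0.823). After normexp, a model-based background correction, and quantile normalization, these differences were smaller but still called, at 0.59 and 0.37. The emodin and IL4 arrays overlapped, and their difference of -0.24, with an interval from -0.61 to 0.12, was not called (adjusted p = 0.219). This last value changed with the processing. It was called lower with spike-in scaling, at -1.20 (adjusted p = 3.0e-05), after quantile normalization, at -0.51 (adjusted p = 0.0252), in the deposited log2 values, at -0.52 (adjusted p = 0.0217), and after normexp with quantile normalization, at -0.22 (adjusted p = 0.0248). After normexp with 75th percentile scaling it was called higher, at 0.19 (adjusted p = 0.0340).

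*Relb* encodes the subunit of the non-canonical route, which pairs with p52. Its level was 3.91, 3.84, 3.71 and 3.96 on the IL4 plus emodin arrays, 3.44, 3.32, 3.15 and 3.42 on the IL4 arrays, and 3.40, 3.22, 3.18 and 3.40 on the control arrays. The emodin arrays lay above all 8 others, by 0.52 ± 0.09 against IL4 (adjusted p = 0.000348) and 0.56 ± 0.09 against control (adjusted p = 0.00023), but both directions turned with spike-in scaling, to -0.43 and -0.30. The raw intensity averaged 7085 on IL4 plus emodin arrays, 7854 on IL4 arrays and 7197 on control arrays. IL4 against control was 0.03, with an interval from -0.17 to 0.24 (adjusted p = 0.847). The other probe of *Relb* gave 0.47 for emodin against IL4 (adjusted p = 0.00455).

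*Nfkb2* encodes p100, the precursor of p52, which also acts as an inhibitor of RelB before it is processed. Its level ranged from 2.01 to 2.26 on the IL4 plus emodin arrays, from 2.27 to 2.46 on the IL4 arrays and from 2.24 to 2.49 on the control arrays. The highest emodin array lay just under the lowest IL4 array. Emodin against IL4 gave -0.23 ± 0.09 (adjusted p = 0.0327), and the call was lost with quantile normalization (adjusted p = 0.0667) and without any one of IL4 replicates 1, 2 and 4 or emodin replicates 2 and 3 (-0.24 to -0.19, adjusted p up to 0.0895). Against control, IL4 plus emodin gave -0.19 ± 0.09, which missed the threshold (adjusted p = 0.0720). A fit with replicate number as block passed it (adjusted p = 0.0187), although the numbers were not taken as pairs for this comparison. The fit without emodin replicate 4 (-0.23, adjusted p = 0.0471), normexp with 75th percentile scaling (adjusted p = 0.0429) and spike-in scaling (-1.05, adjusted p = 1.12e-05) passed it too. IL4 against control gave 0.04, with an interval from -0.15 to 0.23.

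*Rela* encodes p65, the main activating subunit of the canonical dimer. Its probe was bright, with intensities averaging 32528 on IL4 plus emodin arrays, 51848 on IL4 arrays and 46713 on control arrays, and no spot was marked as saturated. Its level ranged from 5.91 to 6.15 on the IL4 plus emodin arrays, from 5.92 to 6.18 on the IL4 arrays and from 5.82 to 6.13 on the control arrays, and the 3 groups overlapped throughout. No difference of *Rela* was called, with intervals from -0.21 to 0.20 for emodin against IL4, -0.14 to 0.27 for IL4 against control and -0.15 to 0.27 for emodin against control. After normexp correction and quantile normalization, emodin against IL4 was called at -0.29 (adjusted p = 0.0486), and with spike-in scaling at -0.96.

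*Nfkbia* encodes IkB-alpha, the classical inhibitor that is rebuilt after each round of NF-kB activity. Its level was 5.44, 5.54, 5.43 and 5.77 on the IL4 plus emodin arrays, 4.51, 4.55, 4.41 and 4.48 on the IL4 arrays, and 4.70, 4.92, 4.82 and 4.83 on the control arrays. The 3 groups did not overlap, with emodin highest and IL4 lowest. With emodin the level was higher than with IL4 alone by 1.06 ± 0.09, or 2.08-fold (adjusted p = 8.73e-07), a call that ended with spike-in scaling (0.10, adjusted p = 0.445). Against control the difference was 0.72 ± 0.09 (adjusted p = 2.04e-05), which turned to -0.13 with spike-in scaling (adjusted p = 0.328). IL4 alone against control gave -0.33 ± 0.09 (adjusted p = 0.0217). This smaller call was lost without IL4 replicate 3 or 4 or control replicate 2 or 4 (-0.33 to -0.30, adjusted p up to 0.0650), after normexp correction (-0.19, adjusted p = 0.151) and with spike-in scaling (-0.24, adjusted p = 0.250).

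*Nfkbib* encodes IkB-beta, which binds the same dimers as IkB-alpha. Its level was 5.34, 5.44, 5.51 and 5.50 on the IL4 plus emodin arrays, 4.45, 4.58, 4.46 and 4.47 on the IL4 arrays, and 4.11, 4.31, 4.26 and 4.33 on the control arrays. Emodin arrays were highest and control arrays lowest, without overlap. The difference of emodin against IL4 was 0.96 ± 0.07 (adjusted p = 4.73e-07), but 0.0022 with spike-in scaling (adjusted p = 0.985), and that of emodin against control was 1.19 ± 0.07 (adjusted p = 8.03e-08). Its 3 probes all gave higher values with emodin than with IL4 but differed in size, at 0.96, 0.80 and 2.09. IL4 against control was 0.24 ± 0.07 and only just called (adjusted p = 0.0452). That call was lost without any single array except emodin replicate 1 (0.19 to 0.26, adjusted p up to 0.126), with quantile normalization (adjusted p = 0.0510) and with spike-in scaling (adjusted p = 0.0590).

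*Nfkbie* encodes IkB-epsilon, an inhibitor that binds dimers of p65 and c-Rel and comes up later than IkB-alpha in the feedback. Its level was 0.49, 0.11, -0.08 and 0.11 on the IL4 plus emodin arrays, 1.65, 1.48, 1.52 and 1.54 on the IL4 arrays, and 2.48, 2.34, 2.26 and 2.06 on the control arrays. The 3 groups stepped down without overlap, in the opposite order to *Nfkbib*. Emodin against IL4 gave -1.39 ± 0.12, a 2.61-fold lower level (adjusted p = 1.32e-06), and IL4 against control gave -0.74 ± 0.12 (adjusted p = 0.00119). Emodin against control gave -2.12 ± 0.12, a 4.35-fold lower level (adjusted p = 4.35e-08), the largest difference of the 10 genes in any of the 3 comparisons when each gene is read by its brightest probe; a dimmer probe of *Nfkbib* gave 2.36 for this comparison. It kept its direction and call with spike-in scaling, at -2.34 against IL4 and -2.98 against control.

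*Nfkbiz* encodes IkB-zeta, an atypical nuclear IkB protein that works as a cofactor for secondary response genes. Its level was -1.49, -1.10, -1.45 and -1.01 on the IL4 plus emodin arrays, -2.86, -3.63, -3.04 and -2.72 on the IL4 arrays, and -2.28, -2.96, -2.94 and -2.43 on the control arrays. Every emodin array lay above all 8 others, and the IL4 and control arrays overlapped. With emodin the level was higher than with IL4 by 1.80 ± 0.22, or 3.49-fold (adjusted p = 1.73e-05), and this was the one member still called higher with spike-in scaling (0.85, adjusted p = 0.00588). Against control the difference was 1.39 ± 0.22 (adjusted p = 0.000145), with the call ending under spike-in scaling (0.53, adjusted p = 0.0595). The probe was dim, with raw intensities averaging 206 on IL4 plus emodin arrays, 95.7 on IL4 arrays and 119 on control arrays. After normexp with quantile normalization both differences were smaller but still called, at 1.00 against IL4 and 0.96 against control. IL4 against control was -0.41, with an interval from -0.88 to 0.06 (adjusted p = 0.233).

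*Tnfaip3* encodes A20, a ubiquitin-editing enzyme that stops signalling upstream of the IKK complex. Its level was 4.85, 4.81, 4.53 and 4.88 on the IL4 plus emodin arrays, 3.84, 3.64, 3.44 and 3.42 on the IL4 arrays, and 3.50, 3.31, 3.26 and 3.21 on the control arrays. The emodin arrays stood apart from all others, and the IL4 and control arrays overlapped. Emodin against IL4 gave 1.18 ± 0.12, or 2.27-fold (adjusted p = 3.3e-06), but 0.23 with spike-in scaling, which was not called (adjusted p = 0.106). Emodin against control gave 1.45 ± 0.12 (adjusted p = 6.73e-07), called also with spike-in scaling at 0.59 (adjusted p = 0.000798). IL4 against control gave 0.26 ± 0.12 and was not called (adjusted p = 0.153), whereas the fit with the replicate number as a block called it at an adjusted p of 0.0497.

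**Figure D2:**
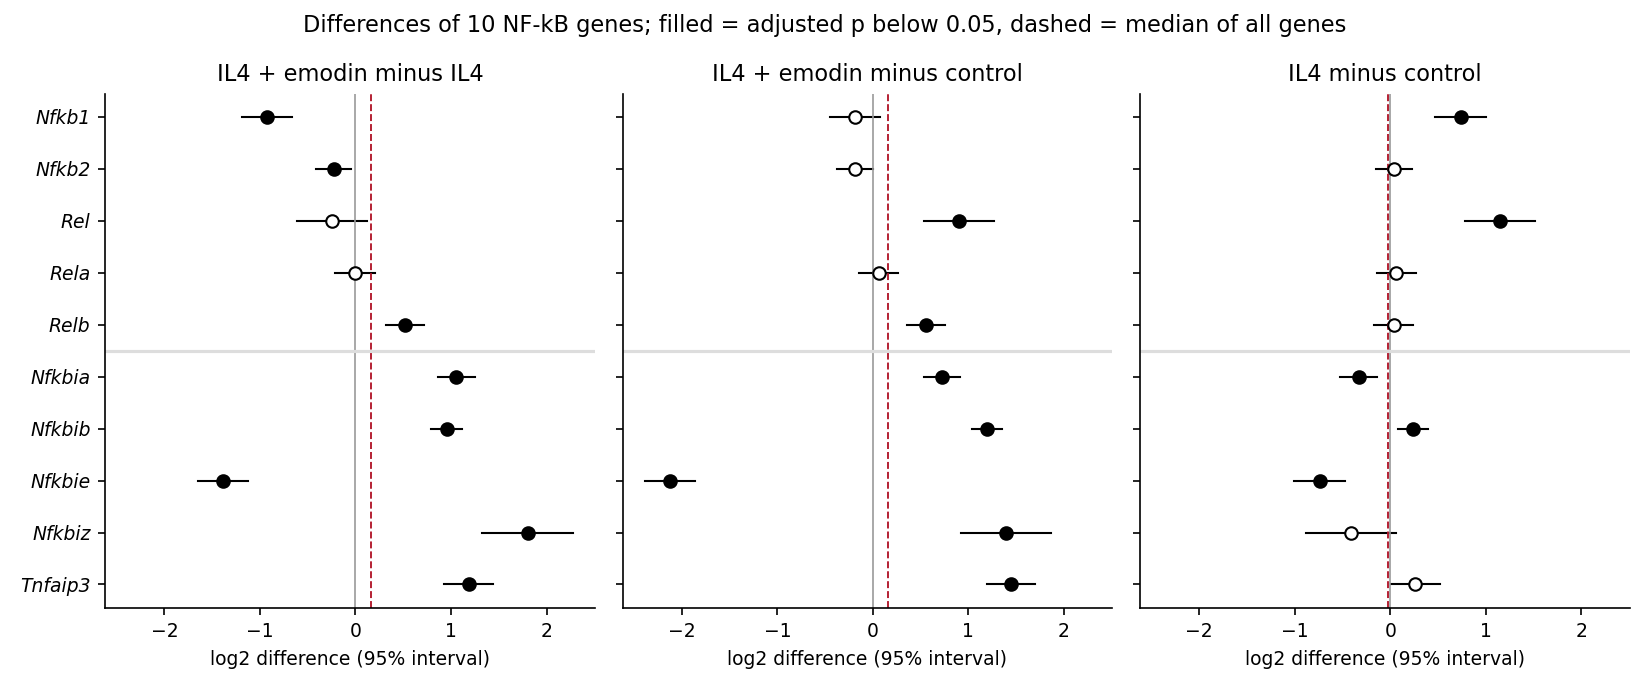
Log2 differences of the 10 genes with 95% intervals in the 3 comparisons, filled where the adjusted p was below 0.05; the dashed line is the median of all genes. *Nfkbie* lies left of 0 in all 3 panels, and *Nfkb1* is higher with IL4 than control (0.74) and lower with emodin than IL4 (-0.93).

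By role, 1 of 5 subunits was higher and 2 were lower with emodin than with IL4, with a median of -0.23, and 4 of 5 inhibitors were higher and 1 was lower, with a median of 1.06. Among all genes 39.4% were higher and 26.5% lower, with a median of 0.17. Against control, emodin gave 2 of 5 subunits higher and none lower, and 4 of 5 inhibitors higher and 1 lower, beside 37.3% and 25.6% of all genes. IL4 alone gave 2 of 5 subunits higher and none lower, and 1 of 5 inhibitors higher and 2 lower, beside 8.98% and 8.56% of all genes. *Nfkbiz* is counted with the inhibitors as an IkB protein, although its product works as a cofactor, as given above. These counts describe 10 chosen genes and were not tested as groups.

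How many of these changes count as rises depends on the scale. When the arrays were scaled to their spike-in probes, the median of all genes fell to -0.79 for emodin against IL4, a shift of -0.95, and calls of higher genes fell to 4.36% against 74.9% lower. Under that scaling 1 of the 10 genes was called higher and 6 lower than with IL4, and 2 higher and 4 lower than in control. Spike-in scaling moves every gene alike, so differences relative to the median of all genes are the same with it as with 75th percentile scaling. These were 1.64 for *Nfkbiz*, 1.02 for *Tnfaip3*, 0.89 for *Nfkbia*, 0.79 for *Nfkbib* and 0.36 for *Relb*. On the same relative scale they were -0.17 for *Rela*, -0.39 for *Nfkb2*, -0.41 for *Rel*, -1.09 for *Nfkb1* and -1.55 for *Nfkbie*. Relative to that median, 5 members thus lay above and 5 below. With quantile normalization the median of all genes was 0.03, and calls were even, at 30.2% up and 30.3% down.

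**Figure D3:**
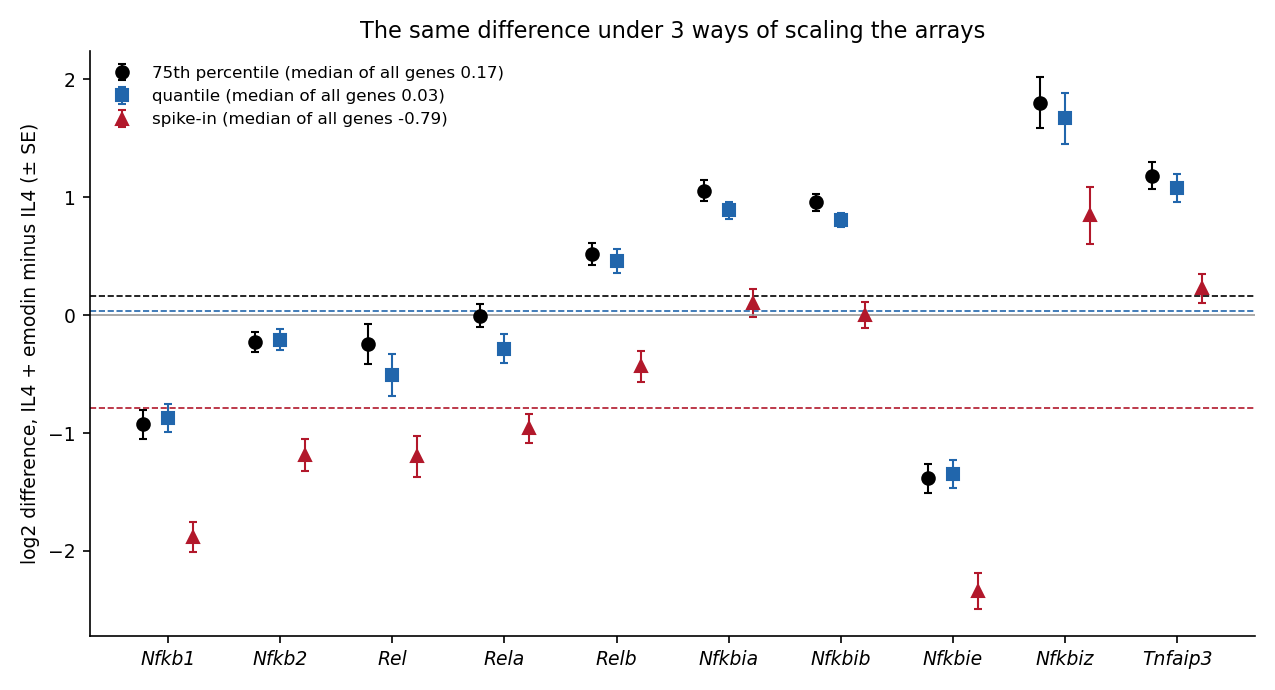
Log2 difference of IL4 plus emodin minus IL4 for each member (± SE) under the 3 ways of scaling the arrays, with the median of all genes under each as a dashed line. Spike-in scaling moves all points down alike, and only *Nfkbiz* (0.85) is then called above 0; with quantile normalization *Rela* (-0.28) falls below *Nfkb2* (-0.21).

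The genes around the 10 members were described by lists of pathway parts. These lists overlap, and a shared gene counts in each. The target list shares *Tnf*, *Il1a* and *Il1b* with the ligands, *Cd40* with the receptors, and *Birc3* and *Traf1* with the adaptors. The shares of all genes to set beside their counts are 39.4% higher and 26.5% lower for emodin against IL4 (median 0.17) and 8.98% and 8.56% for IL4 against control (median -0.03). With spike-in scaling they are 4.36% and 74.9% for emodin against IL4 (median -0.79). Among 7 tested ligands that activate NF-kB, 5 were higher and 2 lower with emodin than with IL4 (median 0.98), and none was higher and 2 were lower with IL4 than in control. *Tnf*, which encodes the cytokine TNF, had a level of 2.09 ± 0.34 with IL4 plus emodin, 0.67 ± 0.16 with IL4 and 1.77 ± 0.17 in control (SD, n = 4 each). The difference was 1.41 ± 0.16 for emodin against IL4, still called at 0.46 with spike-in scaling, and -1.09 ± 0.16 for IL4 against control. *Lta* and *Tnfsf14*, further ligands of the TNF family, lay well above background on all 4 emodin arrays and on no IL4 or control array. They were 6.01-fold and 5.12-fold higher than with IL4 when the IL4 arrays were set to a signal limit described below. *Il1b*, which encodes interleukin-1 beta, lay above background on no emodin array. Its measured difference from IL4 was -1.62 ± 0.17, but only 1.08-fold lower by the signal limit. The measured difference turned to 0.058, with no call, after normexp correction with 75th percentile scaling. The signal limit of an array was its dimmest probe marked well above background, and the gene's own level was used where higher. Probes without the mark can lie above this limit, as *Ccr3* did on the emodin arrays with a mean of -3.82. These folds are therefore not strict lower bounds.

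Receptors were mostly lower with emodin. Of 17 tested, 2 were higher and 13 lower than with IL4 (median -0.60), where 26.5% of all genes were lower, and IL4 gave 5 higher and 3 lower than control (median 0.02). *Tlr4*, the receptor for lipopolysaccharide, had a level of 0.60 ± 0.16 with IL4 plus emodin, 2.99 ± 0.10 with IL4 and 2.52 ± 0.08 in control (SD, n = 4 each). Its difference of emodin against IL4 was -2.39 ± 0.09, and that of *Tlr1*, which senses bacterial lipopeptides with *Tlr2*, was -3.02 ± 0.13. By the signal limit described above, *Il18r1*, a chain of the interleukin-18 receptor, was 2.48-fold lower with emodin than with IL4. By the same limit it was 3.61-fold higher with IL4 than in control. IL4 against control gave -2.07 ± 0.12 for *Tlr2* and 1.49 ± 0.13 for *Cd40*, a receptor of the TNF family. With spike-in scaling no receptor was higher and 16 were lower with emodin than with IL4, where 74.9% of all genes were lower.

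Of 25 adaptors and kinases, 11 were higher and 8 lower with emodin than with IL4 (median 0.02), counts near the shares of all genes, and 3 were higher and 3 lower with IL4 than in control. With spike-in scaling none was higher and 18 were lower with emodin than with IL4, again near the share of all genes. *Myd88*, the adaptor shared by most Toll-like receptors and the interleukin-1 receptor, was lower with emodin than with IL4, with a difference of -1.16 ± 0.07. The adaptors *Tirap* and *Ticam2* were lower too, at -1.48 ± 0.10 and -1.36 ± 0.15. *Traf5*, a TNF receptor adaptor, rose by 1.40 ± 0.11 with IL4 over control and was -1.61 ± 0.11 with emodin against IL4. In the IKK group of 6, *Ikbke* was lower with emodin than with IL4 (-0.82 ± 0.09), *Tank* was higher (0.97 ± 0.11, but 0.015 with spike-in scaling, which is no call), and *Chuk*, the catalytic subunit IKK-alpha, was higher at 0.38 ± 0.07 but lower with spike-in scaling (-0.57). *Ikbkb*, the catalytic subunit IKK-beta, was not called (-0.07 ± 0.11). Of 5 genes on the proteasome route of IkB, 2 were higher and 1 was lower, namely *Btrc*, which encodes the ubiquitin ligase part that recognises marked IkB (-1.18 ± 0.10).

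Other inhibitors did not share 1 direction. *Nfkbid*, a nuclear IkB protein, had a level of 1.89 ± 0.10 with IL4 plus emodin, 2.78 ± 0.04 with IL4 and 3.60 ± 0.14 in control (SD, n = 4 each), and so stepped down as *Nfkbie* did. Its differences were -0.88 ± 0.08 for emodin against IL4 and -0.83 ± 0.08 for IL4 against control. Of 16 further brakes on the pathway, 6 were higher and 6 lower with emodin than with IL4, and both the share higher and the median (0.17) were close to those of all genes; IL4 gave 4 higher and 4 lower than control; with spike-in scaling the emodin counts were 1 higher and 12 lower, beside 74.9% of all genes lower. *Tnip3*, whose product binds A20, was 1.61 ± 0.06 with IL4 plus emodin, 2.99 ± 0.11 with IL4 and 1.36 ± 0.18 in control, and like *Nfkb1* it was highest with IL4. *Tax1bp1* and *Rnf11*, which encode partners of A20, were higher with emodin than with IL4 by 1.25 ± 0.08 and 1.11 ± 0.08, and *Rnf11* was not called with spike-in scaling (0.15, adjusted p = 0.178).

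Of 34 tested genes known as NF-kB targets, 19 were higher and 8 lower with emodin than with IL4 (median 0.63), beside 39.4% and 26.5% of all genes, and 9 were higher and 10 lower with IL4 than in control (median -0.13). With spike-in scaling the emodin counts were 8 higher and 15 lower, beside 4.36% and 74.9% of all genes. *Cxcl2*, a neutrophil-attracting chemokine, had a level of 2.76 ± 0.33 with IL4 plus emodin, -3.27 ± 0.47 with IL4 and -2.06 ± 0.13 in control (SD, n = 4 each), a difference of 6.03 ± 0.22 for emodin against IL4. *Cxcl1* rose by 4.56 ± 0.41 and *Cxcl10* by 3.96 ± 0.33, whereas *Csf1*, the macrophage growth factor, was lower (-2.50 ± 0.15). *Ptgs2*, the inducible cyclooxygenase, lay above background on no control array. By the signal limit described above it was 11.1-fold higher with IL4 plus emodin, and 3.98-fold higher with IL4 alone, than in control. Its difference of IL4 plus emodin against IL4 was 1.47 ± 0.33. The part of the neutrophil markers, which moved both ways as given above, in these values was not tested.

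**Figure D4:**
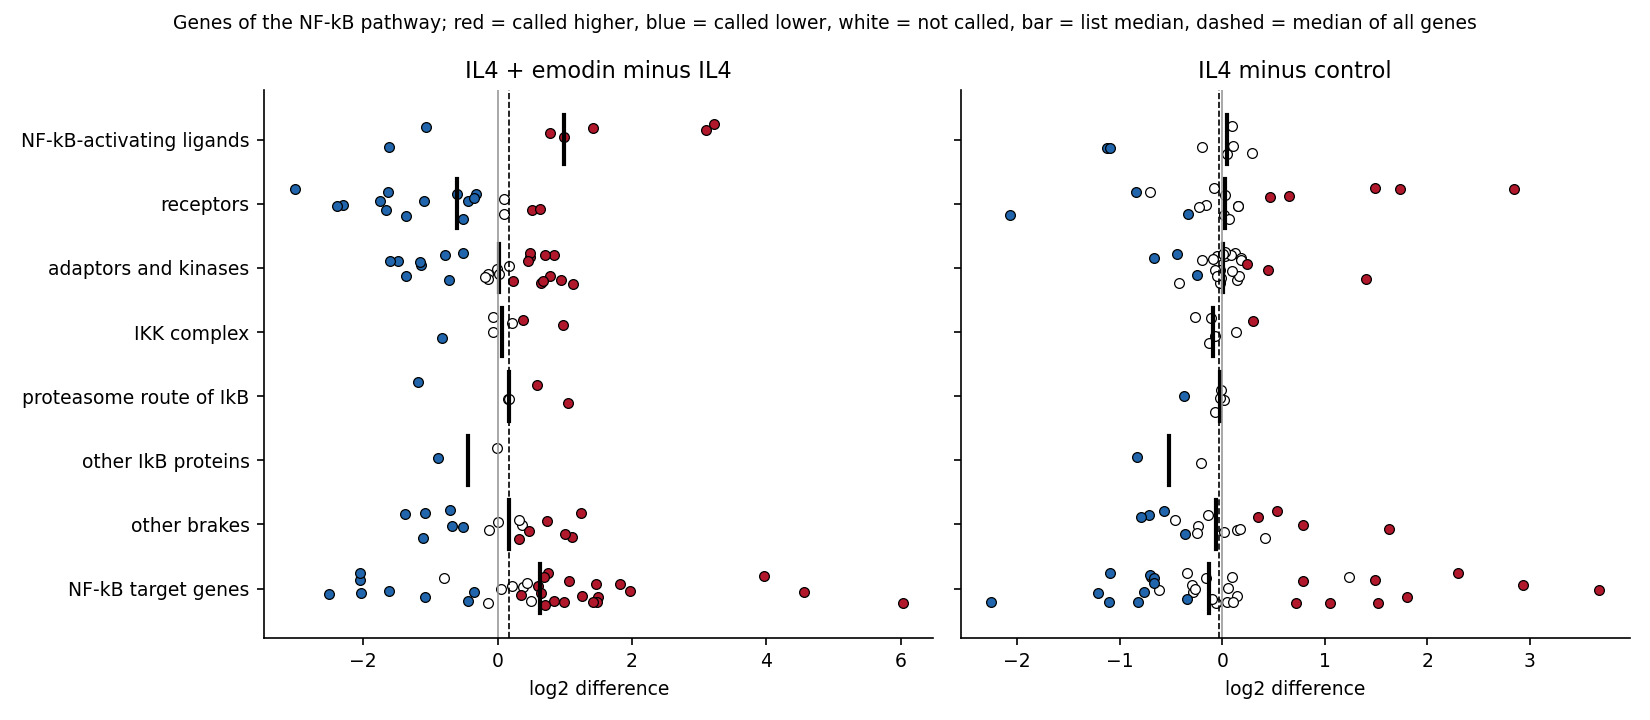
Log2 differences of the genes of 8 pathway lists for IL4 plus emodin against IL4 and for IL4 against control. Points are red where called higher, blue where called lower and white where not called, with a bar at each list's median and a dashed line at the median of all genes. The receptors lie mostly left of the line in the emodin panel (median -0.60), and the targets spread widely on both sides.

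Genes whose levels ran most like those of a member over the 12 arrays were listed by Pearson's r, as a description in which all points share the same 3 groups and slides. *Nfkbie* ran with *Nfam1* (0.989) and *Ubash3b* (0.987), *Nfkb1* with *Dcaf1* (0.989) and *Fgd6* (0.977), and *Rel* with *Trib3* (0.961) and *Irf1* (0.955). *Relb* ran with *Cd109* (0.993), *Tnfaip3* with *Pank4* (0.992), *Nfkbia* with *Cog6* (0.992) and *Nfkbiz* with *Hnrnpul1* (0.980). *Nfkbib* ran with *Gm4907* (0.997) and *Hnrnpc* (0.993). Among the members themselves, *Relb* and *Tnfaip3* ran together (0.947) and *Nfkbib* and *Nfkbie* in opposite directions (-0.983). *Rela*, whose groups overlapped, had a best partner of only 0.876, *Kif12*.

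The response to treatment was also compared between arrays labelled male and female, although the sex check above went against the male label. In limma's test of the interaction none of the 20862 genes was called in any of the 3 comparisons, and 272 genes for IL4 against control, 507 for emodin against IL4 and 434 for emodin against control had an unadjusted p below 0.05. None of the 10 members was called.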

How the data were processed

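The authors deposited a scanner file per array, whose headers name Agilent Feature Extraction 10.7.3.1 and whose processed intensity is background-subtracted. They also deposited log2 values, which matched quantile-normalized signals centred on each probe's median (r of at least 0.9998 on every array; column medians -0.0078 to 0.0137) and served as an alternative.

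Groups and replicate numbers came from the sample titles. Control and outlier spots were left out, and spots of a probe were averaged. Intensity was divided by the 75th percentile of its array and taken to log2. A probe was kept if some group had it well above background on each of its 4 arrays (27705 probes), and the probe with the highest mean stood for its gene. The RefSeq mouse gene table named 27509 probes, 28172 probes stayed unnamed, and 13197 tested genes had a symbol. limma 3.58.1 in R 4.3.3 (with data.table, version 1.17.8) fitted the means of 3 groups to the 12 arrays with 9 residual degrees of freedom, two-sided, with Benjamini-Hochberg adjustment over 20862 genes and calls at 0.05. Precision is limited by 4 arrays a group. The fit was tested on simulated data. Figures were drawn with Python 3.11.15 and matplotlib 3.10.9.

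Alternatives were quantile normalization, spike-in scaling, normexp correction (offset 50, on the median signal) with either scaling, the deposited log2 values, other filters on dim probes, the mean of all kept probes, a trended and robust fit, the 2 compared groups alone, labelled sex as a covariate, the replicate number as a block, and leaving out each array. Numbers were taken as pairs for IL4 and control, where same-numbered arrays correlated at 0.31 to 0.52, so the blocked fit bears on that comparison. The main fit used no block, and the blocked fit called 12.7% of all genes higher and 12.7% lower with IL4 than in control. The number is also the column on the slide in every group, so pairing and column cannot be told apart. With emodin, numbers 1, 3 and 4 correlated at 0.31 to 0.44 with IL4 and 0.34 to 0.52 with control, but number 2 only at 0.09 and 0.06, so not every pair passed 0.1 and the numbers were not taken as pairs. The text names the 10 members, up to 4 called genes with the largest difference per list and comparison (a subset is given), and each member's 2 most similar genes; *Ikbkb* falls outside this rule and was chosen after its values were seen. The members and all lists were chosen with earlier results of these data known.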

Additional observations from a re-analysis of the deposited data

Results flagged for a closer look

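In the IL4 plus emodin group the level of *Rel* on replicate 2 stood apart. It read -3.34 there, against -3.55, -3.57 and -3.59 on replicates 1, 3 and 4, and the gap to the nearest array was 0.862 of the group's whole range, above Dixon's 95% limit of 0.829 for 4 samples. Of 30 groups of 4 arrays tested (10 genes in 3 groups), this was the only one past the limit, and chance puts about 1 in 20 groups past it.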

How the results depend on the processing

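The alternatives were chosen with earlier results of these data known. Spike-in scaling changed most. It gave 1 member higher in place of 5 and 6 lower in place of 3 for emodin against IL4, 2 higher in place of 6 and 4 lower in place of 1 for emodin against control, and 1 lower in place of 2 for IL4 against control. It turned the direction of emodin against IL4 for *Relb* (-0.43), *Chuk* (-0.57) and *Fbxw11* (-0.37), and of emodin against control for *Relb* (-0.30), *Rela* (-0.80), *Nfkbia* (-0.13), *Chuk* (-0.34), *Fbxw11* (-0.29), *Ikbkg* (-0.35), *Tank* (-0.16) and *Zc3h12a* (-0.11). Normexp correction with 75th percentile scaling left 1 member lower for IL4 against control and 2 for emodin against control, and it turned *Rel* (0.19) and *Il1b* (0.058) for emodin against IL4. Normexp with quantile normalization gave 5 members lower for emodin against IL4. The mean of all kept probes gave 2 members lower for emodin against control, and so did the replicate block. *Rela*, never called in the main comparison of emodin with control, turned to -0.21 in the deposited value table, -0.026 with normexp and 75th percentile scaling, and -0.25 both with quantile normalization alone and after normexp. *Relb* for IL4 against control, also not called, turned to -0.0053 with quantile normalization. Leaving out each array in turn gave 2 to 3 members higher and 1 to 2 lower for IL4 against control, 5 higher and 2 to 3 lower for emodin against IL4, and 6 higher and 1 to 2 lower for emodin against control. The second lower member of this last comparison, *Nfkb2*, came up without emodin replicate 4. *Rela* for emodin against IL4 then ranged from -0.048 to 0.044, and *Relb* for IL4 against control from -0.0053 to 0.095. The block called *Tnfaip3* for IL4 against control (adjusted p = 0.0497) and *Nfkb2* for emodin against control (adjusted p = 0.0187), and it changed no other call of a member. Under the filter that needs signal on all 12 arrays *Rel* was not tested, so 9 members remained. The cause of these changes was not tested. Dim probes such as that of *Rel*, above background on 2 of 4 control arrays, limit what can be read at low signal.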
